A study of Mus musculus with 10 samples.

Results

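Genes that make or take up homeostatic chemokines were followed through lymphatic endothelial cells (LECs), blood vascular endothelial cells and mural cells of mouse ear skin. They were the ligands Ccl21a and Cxcl12 and the atypical chemokine receptors Ackr1, Ackr2, Ackr3 and Ackr4. The genes were chosen by name, and all 6 were found among the 42559 genes shared by the 8 Smart-seq plates and among the 32285 genes of the 2 droplet libraries. The plates held single LECs sorted as CD31+ PDPN+ CD45- CD11b- Ter119-, and the droplet libraries held ear-skin cells sorted on CD31. On the plates the study asked what the loss of Tie1, or of Tie1 and Tie2 together, changed in LECs, and in the droplets what blocking angiopoietin 2 (Ang2), a ligand of Tie2, changed.

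Each of 4 genotypes had 2 plates. Tie1 fl/fl and Tie1 Tie2 fl/fl were the Cre-negative controls of 2 strains, and Tie1 iΔLEC and Tie1 Tie2 iΔLEC were their Cre-positive counterparts, in which Prox1-CreERT2 drove deletion in Prox1-expressing cells. Pups of each genotype received 62.5 µg of 4-hydroxytamoxifen from P1 to P5 and were analysed at P28, so the controls had the floxed alleles and the drug too. The 2 plates of each genotype of the Tie1 strain were of a female and a male sample, while those of the Tie1 Tie2 strain were both labelled male. How many mice went into a plate is not given in the sources used here, so each plate counted as 1 sample and the p-values measure only the spread between plates, which may be technical. C57Bl/6j pups without a deletion gave the 2 droplet libraries, 1 after mouse IgG1 and 1 after an Ang2-blocking antibody (Ang2 Ab), both at 20 mg/kg every 3 days from P16 to P21. With 1 library per antibody, no test between them was possible.

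The plates held 71309205 to 110741537 counts each, and 2736 of 3026 wells with at least 1000 detected genes were LEC-like by their clusters. Levels are given as CPM, the counts of a gene scaled to a common library total. All 7 LEC markers fixed for naming were above 0 on every plate, with summed levels of 7636 to 9010.1 CPM, and the summed mural markers reached 9.27 to 64.7 CPM in the controls and 51.3 to 169 CPM in the deleted plates. Tie1 lay at 2351 to 2731 CPM on the 4 control plates and at 472 to 709 CPM on the 4 deleted plates. Tek, which encodes Tie2, lay at 220 to 325 CPM on the 6 plates without its deletion and at 30.6 and 52.9 CPM on the Tie1 Tie2 iΔLEC plates. The IgG library held 4685 and the Ang2 Ab library 4331 cell barcodes, 5 of which both shared.

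Homeostatic chemokines are made at a steady level and guide cells at rest. CCL21 binds CCR7 and leads dendritic cells and T cells into lymphatic vessels, and CXCL12 binds CXCR4 and holds and guides many cell types. Atypical receptors bind chemokines without classical G protein signaling. ACKR1 takes up inflammatory chemokines on venules, ACKR2 scavenges inflammatory CC chemokines, ACKR3 takes up CXCL12 and adrenomedullin, and ACKR4 takes up CCL19, CCL21 and CCL25.

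Ccl21a (ENSMUSG00000094686) lies at chr4:42772860-42773993 on the minus strand of GRCm38 and has 4 exons. A copy of it, Gm21541 (ENSMUSG00000094065), lies at chr4:41903610-41904743 on the plus strand. The transcripts of both are 870 bases long and 99.3% identical, differing at 6 bases. Since the copy had its own row in every table, reads could be split between both genes, and each was reported as uncertain in that respect. In the coding sequence, counted from 1 at the A of the start codon, the copy carries T84A and C194T. The 25 bases around both substitutions are shown, from the reference transcripts, because only reads over differing bases tell Ccl21a from the copy. The further annotated copies Ccl21b, Gm10591 and Gm13304 carry the same substitutions, so these bases do not tell Gm21541 from them. The capital marks the base that differs.
Ccl21a, coding bases 72 to 96: tgatggagggggTcaggactgctgc
Gm21541, coding bases 72 to 96: tgatggagggggAcaggactgctgc
Ccl21a, coding bases 182 to 206: caatcctgttctCaccccggaagca
Gm21541, coding bases 182 to 206: caatcctgttctTaccccggaagca

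Their promoters are close to identical as well. The 300 bases from 250 before to 50 after the annotated start, from RefSeq on GRCm38.p6, are given for both, since both genes were lower in the same samples, as described further on. Of 299 bases compared, 2 differed, marked by capitals. The Ccl21a window is chr4:42773942-42774241 on the minus strand and that of Gm21541 is chr4:41903363-41903662 on the plus strand.
Ccl21a promoter: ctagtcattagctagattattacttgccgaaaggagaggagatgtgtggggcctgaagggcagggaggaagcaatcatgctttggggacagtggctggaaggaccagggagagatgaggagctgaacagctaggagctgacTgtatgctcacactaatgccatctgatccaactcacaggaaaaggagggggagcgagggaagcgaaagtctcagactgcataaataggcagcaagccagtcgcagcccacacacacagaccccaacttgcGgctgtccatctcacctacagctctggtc
Gm21541 promoter: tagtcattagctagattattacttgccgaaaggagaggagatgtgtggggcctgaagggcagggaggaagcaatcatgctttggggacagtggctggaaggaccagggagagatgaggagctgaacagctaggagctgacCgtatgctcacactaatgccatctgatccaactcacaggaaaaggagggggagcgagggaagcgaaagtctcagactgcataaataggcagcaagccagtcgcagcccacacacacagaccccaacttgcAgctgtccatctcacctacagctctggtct

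Cxcl12 (ENSMUSG00000061353) lies at chr6:117168535-117181367 on the plus strand, Ackr1 (ENSMUSG00000037872) at chr1:173331886-173333750 on the minus strand, and Ackr2 (ENSMUSG00000044534) at chr9:121898355-121911074 on the plus strand. Ackr3 (ENSMUSG00000044337) lies at chr1:90203980-90216751 on the plus strand and Ackr4 (ENSMUSG00000079355) at chr9:104084157-104126933 on the minus strand. Exons of Ackr4 share 479 of 5380 bases with exons of Acad11 on the opposite strand, and those of Ackr1 share 361 of 1405 bases with Cadm3 on the same strand, so reads over these bases could not be assigned by sequence. The promoters of Ackr3 and Ackr4 are shown because both receptors were lower on the same plates, as described further on. The capitals mark TATAAA, the letters of a TATA box, searched on both strands and found 8 bases before the start of Ackr3 and 185 bases before that of Ackr4. Only these exact letters were counted, wherever they lay in the window, so near matches were missed and a match does not show a working TATA box. TATAAA was present in 13.6% of 32851 promoters of the same length and in no promoter of the other 4 members. Of these members, Ccl21a and Ackr2 were lower on the same plates too, and any part of the motif was not tested. GTAAACA, a FOXO core motif, was in none of the 6, against 3.65% of all promoters. At so low a share most sets of 6 promoters would lack it, and no bases outside the window were searched, so nothing is drawn from its absence.
Ackr3 promoter, chr1:90203730-90204029, plus strand: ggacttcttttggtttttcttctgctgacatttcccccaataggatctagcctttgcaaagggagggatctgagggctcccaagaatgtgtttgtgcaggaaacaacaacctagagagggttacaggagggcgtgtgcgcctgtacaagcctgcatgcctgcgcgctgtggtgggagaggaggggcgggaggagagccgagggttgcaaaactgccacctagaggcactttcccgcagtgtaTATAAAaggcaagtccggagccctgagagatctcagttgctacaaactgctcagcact
Ackr4 promoter, chr9:104126594-104126893, minus strand: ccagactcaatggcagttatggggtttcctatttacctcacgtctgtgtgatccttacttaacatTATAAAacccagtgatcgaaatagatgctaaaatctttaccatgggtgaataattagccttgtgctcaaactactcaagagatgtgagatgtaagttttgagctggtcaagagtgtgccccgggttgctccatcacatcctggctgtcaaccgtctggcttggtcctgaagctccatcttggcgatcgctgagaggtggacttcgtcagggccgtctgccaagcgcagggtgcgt

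In the droplet libraries the members differed in how they were spread over the cell classes. Cells were clustered without the 6 members, the copies of Ccl21a and the related genes described later, and UMIs (unique molecules) were summed over the cells of a class and given as CPM with an exact 95% Poisson interval, which covers counting error only. Names ending in -like rest on marker genes, so a class against another is a description. The IgG library gave 1321 LEC-like, 1264 blood EC-like and 179 mural-like cells, and the Ang2 Ab library 759, 1298 and 225.

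Ccl21a was a LEC transcript. It reached 13651 CPM (13545 to 13757) in capillary-like LECs and 4496 CPM (4422 to 4572) in valve-like LECs of the IgG library, and the largest LEC cluster, which was led by Lcn2 and stayed unnamed, lay at 10288 CPM. The blood EC-like cells held 148 CPM (141 to 155) and the mural-like cells 159 CPM (145 to 175). Droplets also hold free RNA, which gives UMIs in cells that do not express a gene. In blood EC-like cells, 46.4% had a Ccl21a UMI (median depth 8955 UMIs) and 21.6% a UMI of the LEC marker Mmrn1, against 89.9% and 94.1% of the LEC-like cells (median depth 12260 UMIs). The number of Ccl21a UMIs per Mmrn1 UMI was 3.66 in blood EC-like, 5.64 in mural-like and 4.95 in LEC-like cells of the IgG library. In the Ang2 Ab library these numbers were 1.28, 1.92 and 2.38. The levels outside LECs were read as background, which was not tested.

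Cxcl12 had the opposite distribution. It lay at 2304 CPM (2261 to 2347) in capillary blood EC-like, 1885 CPM (1817 to 1956) in arterial EC-like, 1151 CPM (1110.3 to 1192) in mural-like and 434 CPM (412 to 457) in venous EC-like cells of the IgG library, an order in which no neighboring intervals overlapped. The highest level, 4624 CPM, was in a blood EC cluster led by Lrat and Apcdd1, followed by 3055 CPM in one led by Col13a1. LEC-like cells held 45.5 CPM (42.4 to 48.7). At least 1 Cxcl12 UMI was found in 95.6% of the capillary blood EC-like cells (89.2% after each cell was thinned to 3000 UMIs) and in 23.5% of the LEC-like cells (7.66% after thinning).

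Ackr1 marked the venous cells. Venous EC-like cells of the IgG library held 859 CPM (828 to 891), and 76.2% of them had a UMI (64% after thinning). A cluster of 42 shallow cells led by Ccl3 and Ccl6 held 388 CPM from 42 UMIs. Ackr1 was present in both venous clusters, at 969 CPM in that led by Sele and Selp and at 711 CPM in that led by Slfn4 and Plekha7. Capillary blood EC-like, arterial EC-like and LEC-like cells lay between 2.32 and 3.71 CPM with overlapping intervals, and mural-like cells at 15.8 CPM (11.4 to 21.4).

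Ackr2 lay mostly in LECs. Capillary-like LECs held 76.0 CPM (68.3 to 84.3) and valve-like LECs 4.18 CPM (2.23 to 7.15) in the IgG library, while 1264 blood EC-like cells gave 3 UMIs and 179 mural-like cells gave 1. Outside these classes a cluster with fibroblast and muscle genes, led by Acta1 and Mfap5, held 25.4 CPM from 24 UMIs. Of the capillary-like LECs, 40.2% had a UMI (19.4% after thinning), against 3.86% of the valve-like LECs (1.20% after thinning).

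Ackr3 was the most widely shared receptor. In the IgG library it lay at 249 CPM in the Lcn2-led LEC cluster, 149 CPM (130.3 to 170) in arterial EC-like cells, 147 CPM (136 to 158) in capillary-like LECs, 139 CPM (129 to 150) in capillary blood EC-like cells and between 118 and 143 CPM, by its interval, in valve-like LECs. The last 4 classes had overlapping intervals. Mural-like cells followed at 78.0 CPM (67.8 to 89.4) and venous EC-like cells at 48.3 CPM (41.2 to 56.3).

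Ackr4 was rare in the endothelium. The highest level among the clusters, 59.6 CPM (43.0 to 80.6), was in 39 keratinocyte-like cells, followed by 39.2 CPM in the cluster led by Acta1 and Mfap5 and 21.6 CPM in one led by Col2a1, a cartilage gene. Arterial EC-like cells held 15.2 CPM (9.62 to 22.8), and 10% of them had a UMI. The LEC-like cells held 9.43 CPM (8.07 to 11.0), and 171 UMIs came from 23 of 1321 cells, 21 of them in the Lcn2-led cluster. None was found in 391 capillary-like LECs, which allows a share of up to 0.767%, and none in 179 mural-like cells, which allows up to 1.68%, where the limits are on cells with a UMI and not on cells that express the gene.

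These 23 LECs differed in other genes from the 1298 LEC-like cells without an Ackr4 UMI. Summed collector markers lay at 3303 CPM against 1057 CPM, with Procr, a collector marker, at 645 CPM against 116 CPM. Summed capillary markers were at 202 CPM against 1315 CPM and Lyve1 at 7.30 CPM against 1732 CPM. The other members differed as well, since Ccl21a was at 129 CPM against 9948 CPM in the other LECs and Ackr3 at 421 CPM against 186 CPM. The cells were grouped by Ackr4 itself and came from 1 library, so these values are a description without a test.

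**Figure D1:**
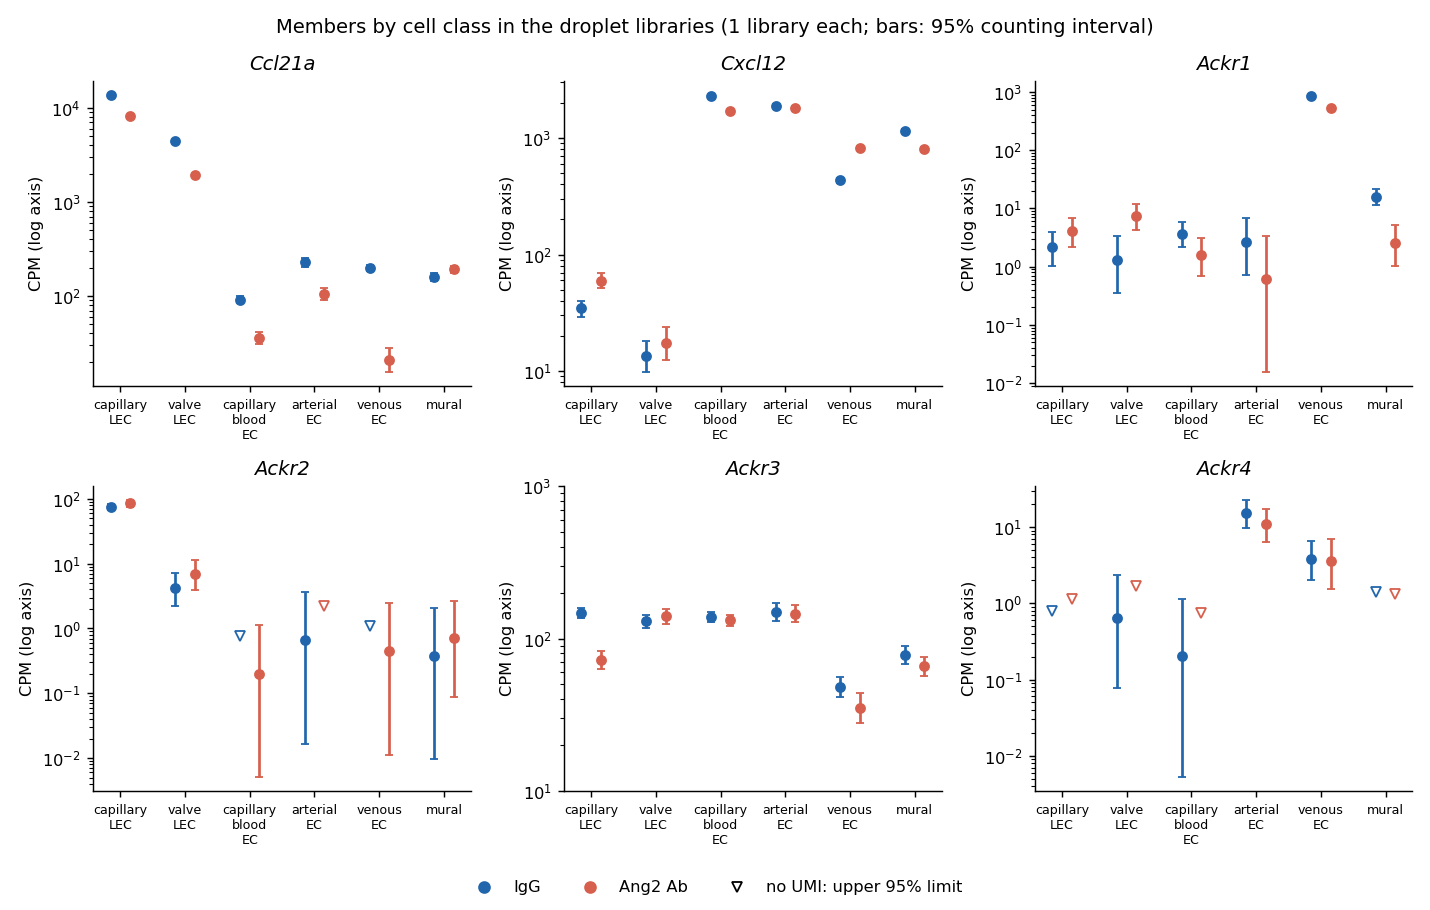
Level of each member (CPM, log axis) in 6 cell classes of the IgG library (blue) and the Ang2 Ab library (red). Points are sums over the cells of 1 library with 95% Poisson intervals, and open triangles mark the upper limit where no UMI was found. Ccl21a and Ackr2 peak in capillary-like LECs, Cxcl12 in capillary blood EC-like and arterial EC-like cells, and Ackr1 in venous EC-like cells at 859 CPM.

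Among all the genes outside the chosen set, those most similar to a member over the 22 droplet clusters were named by the Pearson correlation of log2(CPM + 1), as a description over clusters that share libraries and depth. For Ccl21a these were Mmrn1 (r = 0.98), Il7 (0.96) and Lyve1 (0.95), of 12872 genes compared. Cxcl12 was closest to Kitl (0.95), Ly6c1 (0.95) and Akr1c14 (0.94). Ackr1 was closest to Gm30191 (0.97), Masp1 (0.93) and Selp (0.91), and Ackr2 to Prdm8 (0.92), Ripor3 (0.91) and Pkib (0.91). The correlations were lower for Ackr3, with Igf2 (0.81), Ehd1 (0.81) and Nudt4 (0.77), and for Ackr4, with Nog (0.85), Scx (0.85) and Nipal2 (0.84).

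In the LEC-like wells of the plates, 5 of the 6 members were present at levels that could be compared. Per kilobase of exon, as the mean of the 4 control plates, Ccl21a lay at 1187 ± 139 CPM (SD, n = 4), Ackr3 at 96.2 ± 40.1 CPM, Ackr2 at 86.6 ± 23.4 CPM, Cxcl12 at 2.40 ± 0.215 CPM, Ackr4 at 1.76 ± 0.734 CPM and Ackr1 at 0.0587 ± 0.0589 CPM. The ranges of Ackr3 (61.8 to 148 CPM) and Ackr2 (53.0 to 106 CPM) overlapped, and so did those of Cxcl12 (2.13 to 2.59 CPM) and Ackr4 (0.984 to 2.61 CPM). Ccl21a was read in every LEC-like well of the 4 control plates, and its copy Gm21541 lay at 112 ± 10.9 CPM per kilobase. The wells of these plates that were removed as other cell types also each had a Ccl21a read, at 1555 to 4097 CPM. A read in a well therefore did not set LEC-like wells apart, and the origin of these reads was not tested.

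LEC classes differed in the members they carried. The wells were named from clusters made without the members, as 1619 capillary-like, 401 collector-like and 400 valve-like wells, and a second step that separates capillary-like wells was set with the data in view. Ackr2 was higher in capillary-like than in valve-like wells on 8 of 8 plates, by a median ratio of 7.57, with 191 to 465 CPM against 6.59 to 64.0 CPM. It was also higher in collector-like than in valve-like wells on 8 of 8 plates, and higher in capillary-like than in collector-like wells on 7 of 8, with 211 against 268 CPM on Tie1 iΔLEC plate 1. Cxcl12 was higher in capillary-like wells than in collector-like and in valve-like wells on 8 of 8 plates each, with 20.99 to 42.6 CPM against 1.94 to 15.4 and 0.659 to 13.6 CPM.

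Ccl21a was higher in capillary-like than in collector-like wells on 4 of 4 control plates and on 6 of 8 plates in all, by a median ratio of 1.43, with both exceptions on the Tie1 Tie2 iΔLEC plates. Its counts per well had an upper limit and its CPM was lower in deeper wells, as described further on. The part of well depth in this order was not tested. Ackr3 showed no fixed order, being higher in capillary-like than in collector-like wells on 5 of 8 plates and than in valve-like wells on 3 of 8. Ackr4 was higher in capillary-like than in valve-like wells on 4 of 4 control plates, and so it was in collector-like wells. It was higher in capillary-like than in collector-like wells on 3 of 4 control plates. The droplets differed from this, since capillary-like LECs gave no Ackr4 UMI in either library. In the interferon-gene wells Ackr2 had its highest plate median of the named classes, 707 CPM with a range of 375 to 2147 CPM, from 7 to 15 wells per plate.

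**Figure D2:**
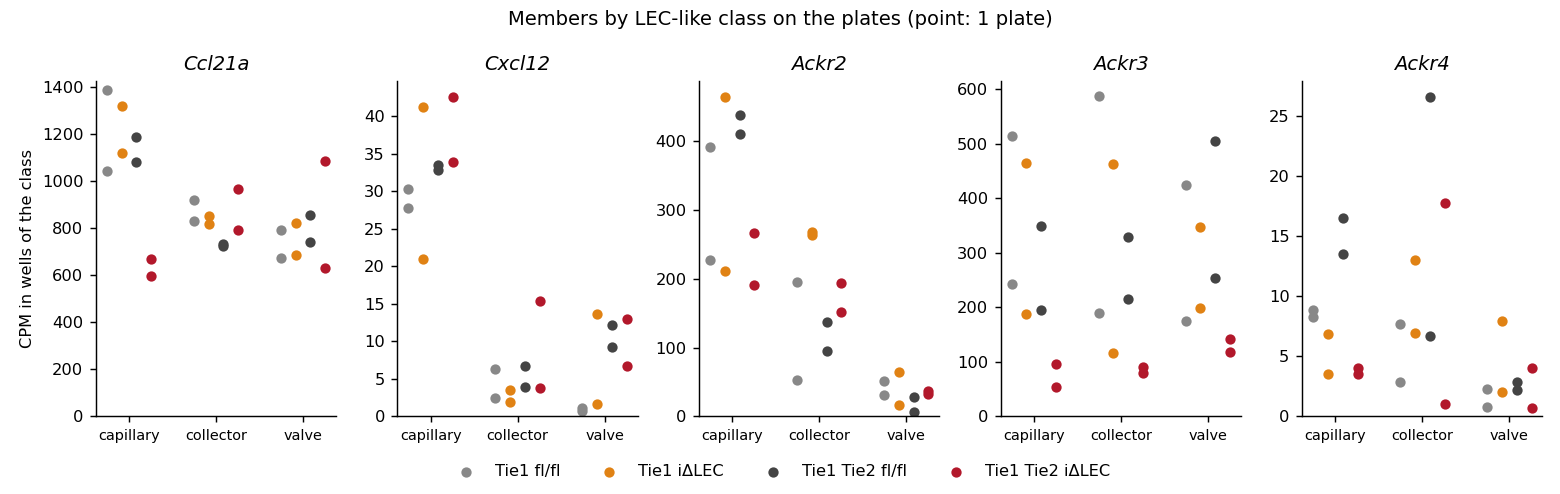
CPM of 5 members in capillary-like, collector-like and valve-like LEC wells, with 1 point per plate colored by genotype. Cxcl12 is highest in the capillary-like wells on 8 of 8 plates and Ackr2 on 7 of 8, and on the Tie1 Tie2 iΔLEC plates Ackr3 is below both control plates of its strain in each class, with 53.4 to 142 CPM.

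The combined loss of Tie1 and Tie2 went with lower levels of 3 receptors and of Ccl21a and with a higher level of Cxcl12, but no member passed the test. In edgeR's quasi-likelihood fit over the 8 plates with Benjamini-Hochberg adjustment over 19899 genes, 0 of the 6 members were called at an adjusted p of 0.05, where 1.2% of all genes were called. At an unadjusted p under 0.05 there were 3 members, Ackr3, Ackr4 and Ccl21a, beside 10.6% of all genes. DESeq2 called 1 member, Ackr4, and 5.77% of all genes. The limma fits called 0 members, and each alternative with no plate left out called at least 166 genes. With the edgeR filter on low counts left out, 1 member (Ackr3) and 3.93% of all genes were called. Both deleted plates lay below both controls for Ccl21a, Ackr2, Ackr3 and Ackr4, 4 of the 6, as they did for 21.6% of all genes, and both lay above for Cxcl12, as they did for 15.9%. A comparison of 2 plates with 2 cannot go below p = 0.333 in an exact permutation test, so none was used for single genes.

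Ackr3, the scavenger of CXCL12, was at 207 and 359 CPM on the Tie1 Tie2 fl/fl plates and at 93.3 and 65.9 CPM on the Tie1 Tie2 iΔLEC plates. Groups did not overlap, and the fold change was -1.80 on the log2 scale (SE 0.56, edgeR adjusted p = 0.282). The share of LEC wells with an Ackr3 read was 78.7% and 97.3% on the control plates and 24.2% and 42.7% on the deleted ones, and after thinning to 50000 counts per well it was 51.4% and 80.6% against 20.2% and 22.5%. With no filter on low counts edgeR called Ackr3 (adjusted p = 8.1e-07), and DESeq2 gave an adjusted p of 0.0582. Over the other alternatives and the left-out plates the call was not made. Within the plates that share a table layout Ackr3 went from 207 to 93.3 CPM and from 359 to 65.9 CPM.

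Ackr4, the scavenger of CCL19 and CCL21, was at 11.2 and 14.1 CPM on the control plates and at 3.91 and 3.43 CPM on the deleted plates, again without overlap. Its fold change was -1.76 on the log2 scale (SE 0.53, edgeR adjusted p = 0.254; DESeq2 adjusted p = 0.00106). The controls of the Tie1 strain lay lower than those of the Tie1 Tie2 strain, at 5.29 and 7.20 CPM. The share of wells with a read was 11.0% and 20.6% on the controls and 6.59% and 10.2% on the deleted plates, or 8.25% and 10.6% against 6.14% and 6.80% after thinning. A single well held 25.6% and 25.5% of the Ackr4 counts on the Tie1 Tie2 fl/fl plates. Acad11, which overlaps Ackr4 on the other strand, went from 44.1 and 36.6 CPM to 22.7 and 15.4 CPM (log2 fold change -1.06, SE 0.38, edgeR adjusted p = 0.355). Its part in the Ackr4 counts was not tested. The summed collector markers were high in the Ackr4-positive LECs of the droplets. On the plates they lay at 4638 to 4720 CPM in the controls and at 1970.1 to 2792 CPM on the deleted plates, with 0 of 7 markers at 0. Within capillary-like wells the log2 fold change of Ackr4 was -2.02 (SE 0.65, edgeR adjusted p = 0.321). In collector-like wells it was -0.75 (SE 1.56) and in valve-like wells -0.14 (SE 1.54). The part of the collector-like cells in the Ackr4 level was not tested either.

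Ackr2, the scavenger of inflammatory CC chemokines, was at 304 and 280.2 CPM on the control plates and at 237 and 179 CPM on the deleted ones, a log2 fold change of -0.46 (SE 0.47, edgeR adjusted p = 0.841). Its groups did not overlap, yet the 2 control plates of the Tie1 strain, at 166 and 333 CPM, spanned both.

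Cxcl12 was at 20.9 and 21.2 CPM on the control plates and at 39.0 and 28.7 CPM on the deleted ones, a log2 fold change of 0.71 (SE 0.36, edgeR adjusted p = 0.555). It was the 1 member with a higher level on both deleted plates. Reads were found in 17.6% and 36.4% of the deleted LEC wells against 40.5% and 35.2% of the control wells, so the share of wells did not follow the level. Mural cells, which express Cxcl12, can leave RNA in a sort, and the summed mural markers lay at 26.1 and 64.7 CPM in the controls and at 147 and 169 CPM on the deleted plates, with no more than 1 of 8 markers at 0. Kcnj8, in the mural list, was also a leading gene of a capillary-like LEC cluster. Capillary-like wells, which held more Cxcl12 than collector-like or valve-like wells, numbered 241 and 245 against 172 and 184 in the controls. Within them the log2 fold change of Cxcl12 was 0.20 (SE 0.42, edgeR adjusted p = 0.959). In collector-like wells it was 0.87 (SE 1.47) and in valve-like wells -0.07 (SE 1.36). The part of mural RNA and of the class mix in the Cxcl12 level was not tested.

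Ackr1 was near absent from LECs. The control plates of the Tie1 Tie2 strain held 12 and 15 counts and the deleted plates 0 and 91, of which 98.9% came from 1 well. In the Tie1 strain the 4 plates held 2, 0, 2 and 0 counts, so no fold change was drawn.

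Ccl21a was at 1035 and 949 CPM on the control plates and at 717 and 681 CPM on the Tie1 Tie2 iΔLEC plates, a log2 fold change of -0.49 (SE 0.21, edgeR adjusted p = 0.459). Its copy Gm21541, which was not among the members and was singled out after its values were seen, was at 94.0 and 89.4 CPM on the controls and at 22.3 and 18.7 CPM on the deleted plates. The log2 fold change of the copy was -2.14 (SE 0.29, edgeR adjusted p = 0.0124), which passed the test. The call was lost without Tie1 Tie2 fl/fl plate 1 (adjusted p = 0.0948), without Tie1 Tie2 fl/fl plate 2 (adjusted p = 0.0612) and without Tie1 Tie2 iΔLEC plate 2 (adjusted p = 0.0768), with log2 fold changes of -1.96 to -2.38 over all left-out plates.

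**Figure D3:**
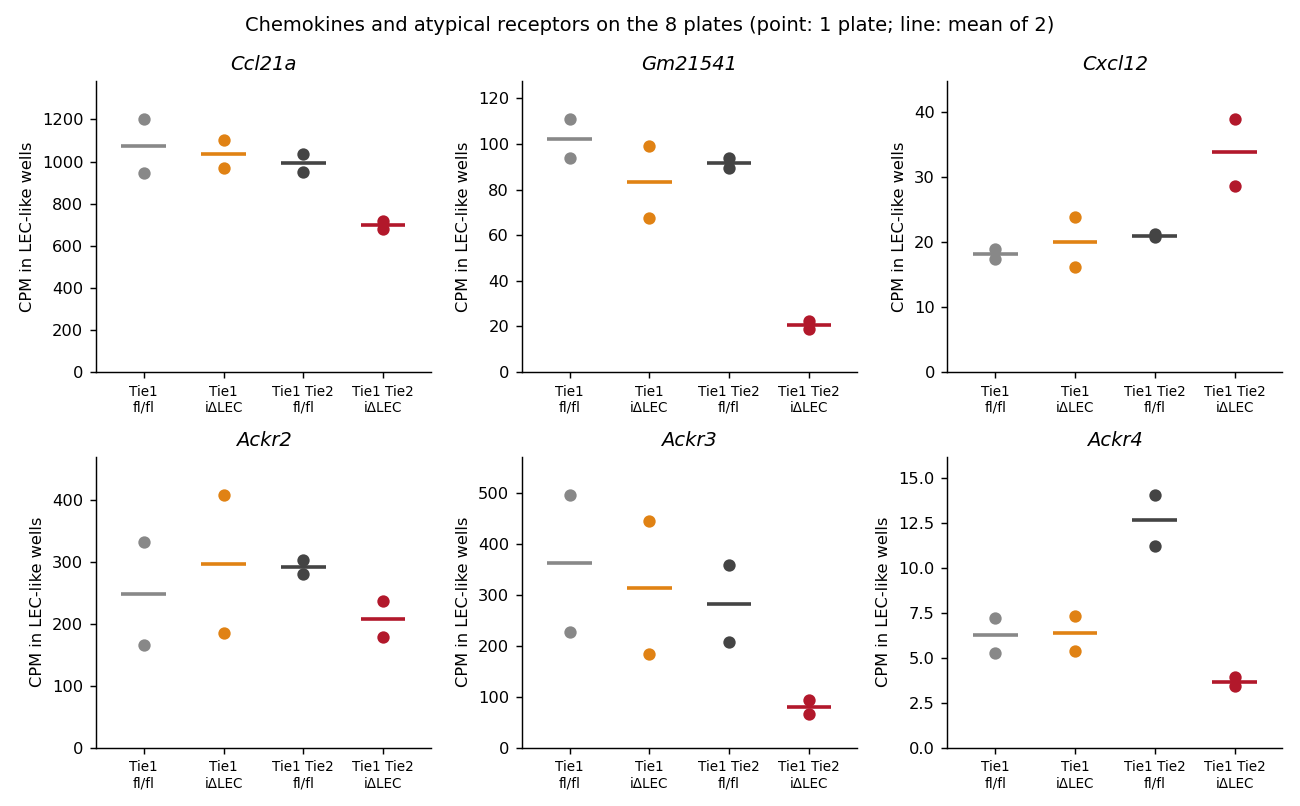
CPM in LEC-like wells of 5 members and of Gm21541, a copy of Ccl21a, by genotype, with 1 point per plate and a line at the mean of 2 plates. In all panels but that of Cxcl12 both Tie1 Tie2 iΔLEC plates are below both Tie1 Tie2 fl/fl plates, and for Cxcl12, at 39.0 and 28.7 CPM, both are above.

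The counts of Ccl21a on the plates had an upper limit. The authors removed duplicate reads before counting, as the column names show, and the transcript is 870 bases long. The highest count in any LEC well was 356 to 446 on the 8 plates, and the 95th percentile was 303 to 409. The highest well exceeded the median well by 1.41 to 2.84 times, whereas for Mmrn1 it did so by 3.64 to 12.9 times. In wells below the median depth of their plate Ccl21a lay at 925 to 2494 CPM, and in the deeper wells at 543 to 948 CPM. Gm21541 also had a narrow top, with a highest well of 37 to 48 counts on every plate.

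The median well held 287 and 298 Ccl21a counts on the Tie1 Tie2 fl/fl plates and 126 and 209 on the Tie1 Tie2 iΔLEC plates. For Gm21541 the median well held 26 and 26 counts against 0 and 1. Each Ccl21a count was also read as a number of filled start positions and turned into the number of molecules that would fill as many. With this alternative, chosen after seeing the data, the log2 fold change of Ccl21a was -0.77 (edgeR adjusted p = 0.187). The call did not change.

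**Figure D4:**
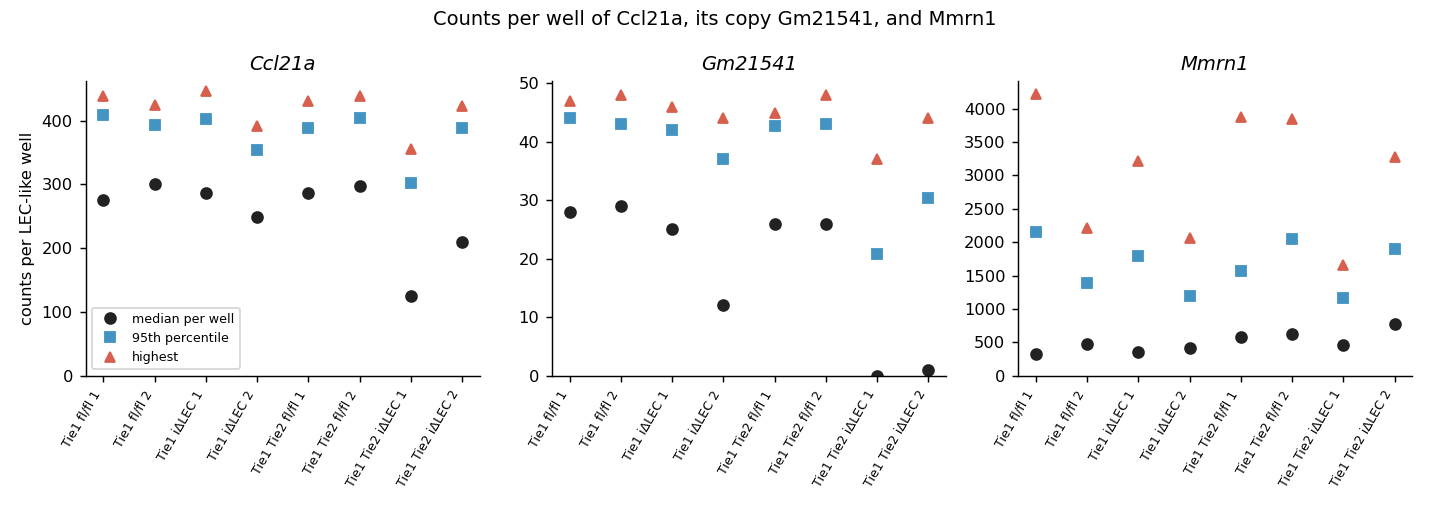
Counts per LEC-like well on each of the 8 plates (median, 95th percentile and highest well) for Ccl21a, its copy Gm21541 and the LEC marker Mmrn1. The highest Ccl21a wells stop between 356 and 446 counts on every plate, while those of Mmrn1 reach 1657 to 4221.

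With Tie1 alone deleted, no member was called, in a fit whose spread between plates includes the difference in sex and table layout. Of the 6 members 0 were called by edgeR, DESeq2 and limma, 0 had an unadjusted p under 0.05, and 0% of all genes were called by edgeR, with 857 genes (4.31%) at an unadjusted p under 0.05. DESeq2 called 1.26% of all genes, and edgeR with no filter on low counts called 0.889% of them and 0 members. Over the alternatives with no plate left out, limma among them, 0 to 271 genes were called. Ccl21a lay at 944 and 1202 CPM on the Tie1 fl/fl and at 1101 and 968 CPM on the Tie1 iΔLEC plates. Cxcl12 was at 17.4 and 19.0 against 23.9 and 16.2 CPM, and Ackr2 at 166 and 333 against 186 and 409 CPM. Ackr3 was at 227 and 497 against 184 and 444 CPM, and Ackr4 at 5.29 and 7.20 against 5.39 and 7.35 CPM. The groups overlapped for all 6 members, whereas 14.1% of all genes were lower and 14.7% higher on both deleted plates. The log2 fold changes of the 5 members other than Ackr1 ran from -0.20 (Ackr3, SE 0.54) to 0.26 (Ackr2, SE 0.47). Ackr2 and Ackr3 were each higher on the second, male plate of both genotypes, and the sex and the table layout differed together there and cannot be told apart. Between plates of the same sex and layout, Ackr2 went from 166 to 186 and from 333 to 409 CPM. Ackr3 went from 227 to 184 and from 497 to 444 CPM. With the table layout as a term, edgeR called 0 members and 0 genes for this deletion.

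The difference between the deletions was tested as an interaction, and 0 of the 6 members passed it in edgeR's fit, where 0.136% of all genes did, with 1 member (Ackr4) and 7.34% of all genes at an unadjusted p under 0.05. In edgeR the difference was -1.60 on the log2 scale for Ackr3 (SE 0.78, adjusted p = 0.727), -1.80 for Ackr4 (SE 0.73, adjusted p = 0.634) and -1.85 for Gm21541 (SE 0.40, adjusted p = 0.226). Averaged over both deletions 0 of the 6 were called, against 1% of all genes, with 2 members (Ackr3 and Ackr4) and 9.89% of all genes at an unadjusted p under 0.05. DESeq2 called 0 members for the difference, with 2.81% of all genes, and 0 for the average, with 5.05%. With no filter on low counts edgeR called 1 member (Ackr3) for the difference, with 2.03% of all genes, and the same member for the average, with 3.53%. The difference for Ackr3 varied with the plate left out, at -0.76 without Tie1 iΔLEC plate 2 and -2.38 without Tie1 fl/fl plate 2.

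Within LEC classes no member was called either. On the Tie1 Tie2 iΔLEC plates the collector-like wells numbered 19 and 18, against 76 and 70 on their controls, and the capillary-like wells 241 and 245 against 172 and 184. In edgeR's fits Ackr3 had a log2 fold change of -1.84 in capillary-like (SE 0.60, adjusted p = 0.328), -1.65 in collector-like (SE 0.71, adjusted p = 0.419) and -1.51 in valve-like wells (SE 0.52, adjusted p = 0.485). With finer clusters, of 7 to 68 collector-like wells a plate, the collector-like value was -7.93 (adjusted p = 0.0504, edgeR). The edgeR fits called 0.719%, 0.452% and 0.101% of all genes in these 3 classes. Ccl21a was at 1185 and 1081 CPM in the capillary-like wells of the controls and at 594 and 667 CPM in those of the deleted plates (log2 fold change -0.87, SE 0.23, edgeR adjusted p = 0.197). In collector-like wells its log2 fold change was 0.29 (SE 0.25) and in valve-like wells 0.15 (SE 0.33). The copy Gm21541 was called in capillary-like wells, with a log2 fold change of -2.71 (SE 0.33, edgeR adjusted p = 0.011).

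The Ang2 Ab library showed lower levels of Ccl21a and Ackr3 in LECs than the IgG library, a lower level of Ackr1 in venous cells, and Cxcl12 levels that went in opposite directions in venous and capillary blood cells. Each ratio compares 2 libraries and has an exact 95% interval for counting error only. As background, among genes with 100 or more UMIs in a class over both libraries, 0.961% were at least 2-fold lower and 1.18% at least 2-fold higher in the LEC-like cells of the Ang2 Ab library. Lower and higher shares were 1.26% and 0.919% in capillary-like LECs and 0.278% and 0.336% in valve-like LECs. In blood vessels they were 0.215% and 0.203% in capillary, 0.117% and 0.195% in arterial and 0.758% and 0.292% in venous EC-like cells, and 0.346% and 0.144% in mural-like cells. They were 2.38% and 2.44% in proliferating LEC-like and 0.55% and 0.212% in all blood EC-like cells. Past 2-fold in these classes, all lower, were Ackr4 in all LEC-like cells, Ackr3 in capillary-like LECs and Ackr1 in all blood EC-like cells (0.445). Within the venous EC-like cells the Ackr1 ratio was 0.619. These were 277 of 1264 blood EC-like cells in the IgG and 231 of 1298 in the Ang2 Ab library, and the part of this mix was not tested. Ccl21a was also past 2-fold lower in valve-like LECs (0.431), in proliferating LEC-like cells (0.429) and in the blood EC-like classes, where it was read as background. In mural-like cells, where it was read as background too, the Ccl21a ratio was 1.21. There the IgG library had 423 Ccl21a UMIs in 77 of 179 cells and the Ang2 Ab library 533 in 40 of 225 cells. Whether these UMIs came from free RNA was not tested.

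Ccl21a went from 9726 to 5496 CPM in all LEC-like cells, a ratio of 0.565 (0.560 to 0.571), and 1.65% of 10825 genes had a lower ratio. In capillary-like LECs it went from 13651 to 8148 CPM (ratio 0.597, 0.588 to 0.606) and in valve-like LECs from 4496 to 1938 CPM (ratio 0.431, 0.416 to 0.446). The valve-like class held a pair of clusters, of which that led by Slc41a1 and Irx3 went from 9342 to 3177 CPM and that led by Cd79a and Sbspon from 1084 to 944 CPM, and with finer clusters the valve-like ratio was 0.878. The copy Gm21541 went from 107 to 42.0 CPM in capillary-like LECs, a ratio of 0.394 (0.323 to 0.478). The 7 LEC markers had unequal ratios in the same capillary-like cells. Fxyd6 (0.678, 0.635 to 0.724), Pdpn (0.752, 0.689 to 0.819) and Flt4 (0.921, 0.879 to 0.965) were lower, Mmrn1 (1.01, 0.983 to 1.03) and Prox1 (0.975, 0.936 to 1.01) had intervals that include 1, and Thy1 (1.22) and Reln (1.26) were higher, with intervals above 1. UMIs, unlike the plate counts, have no upper limit of the kind described for the plates. In blood EC-like cells, where Ccl21a was read as background, the level was 148 CPM in the IgG and 41.1 CPM in the Ang2 Ab library.

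Ackr3 went from 191 to 113 CPM in LEC-like cells (ratio 0.594, 0.554 to 0.635; 2.12% of genes lower) and from 147 to 72.6 CPM in capillary-like LECs (ratio 0.496, 0.425 to 0.576; 1.20% of 8158 genes lower). The Lcn2-led cluster, higher in Ackr3 than capillary-like LECs in the IgG library, held 596 of 1321 LEC-like cells there. It held 262 of 759 in the Ang2 Ab library, and the part of this mix in the ratio over all LEC-like cells was not tested. The share of capillary-like LECs with a UMI was 54.0% and 38.6%, or 30.4% and 16.3% after thinning. In valve-like LECs its ratio was 1.08 (0.925 to 1.25), in capillary blood EC-like cells 0.947 (0.849 to 1.06) and in arterial EC-like cells 0.977 (0.812 to 1.18). The intervals of these 3 classes include 1 and lie above that of capillary-like LECs. Ackr3 was also lower in venous EC-like cells (ratio 0.730, 0.551 to 0.961) and in cells with fibroblast markers (0.618, 0.517 to 0.736), whose intervals overlap that of capillary-like LECs, and in mural-like cells the ratio was 0.845 (0.688 to 1.04). The lower level was therefore not limited to LECs, and the valve-like ratio was 0.880 when only cells of at most 5% mitochondrial UMIs were kept.

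Ackr4 in LEC-like cells went from 171 UMIs in 23 of 1321 cells to 7 UMIs in 2 of 759 cells, a ratio of 0.0746 (0.0295 to 0.157), and 1 of 10825 genes had a lower one. The share of LEC-like cells was 1.74% (1.11 to 2.60) against 0.264% (0.0319 to 0.949; exact binomial intervals). These intervals are over the cells of 1 library each, and cells are not replicates of the antibody. A cell with a UMI held a median of 5 in the IgG library, and 6 of the 7 Ang2 Ab UMIs lay in 1 cell. The interval of the ratio does not cover this clumping. In the Lcn2-led cluster, which held nearly all LEC-like cells with an Ackr4 UMI, 21 of 596 and 2 of 262 cells had one. The ratio was 0.717 (0.365 to 1.39) in arterial EC-like cells, and keratinocyte-like cells held 59.6 and 67.0 CPM. Ackr2 went from 76.0 to 85.8 CPM in capillary-like LECs, a ratio of 1.13 (0.961 to 1.33) whose interval includes 1.

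In blood vessels, Ackr1 went from 859 to 532 CPM in venous EC-like cells (ratio 0.619, 0.578 to 0.663; 2.1% of 6856 genes lower). The share of these cells with a UMI was 76.2% and 64.5%, or 64% and 53.2% after thinning. The Sele and Selp cluster, in which Ackr1 was highest, made up 133 of 277 venous EC-like cells in the IgG and 78 of 231 in the Ang2 Ab library, and within it Ackr1 went from 969 to 504 CPM. In the other venous cluster it went from 711 to 559 CPM.

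Cxcl12 went from 434 to 821 CPM in venous EC-like cells, a ratio of 1.89 (1.77 to 2.03) below which 99.6% of genes lay. The share of these cells with a UMI was 80.1% and 85.7%, or 56.8% and 78.6% after thinning, at median depths of 12318 and 8874 UMIs. The mix of the venous clusters differed between the libraries, as given for Ackr1, and its part in the Cxcl12 ratio was not tested. In capillary blood EC-like cells it went from 2304 to 1706 CPM (ratio 0.741, 0.720 to 0.762) and in mural-like cells from 1151 to 801 CPM (ratio 0.696, 0.659 to 0.736). Arterial EC-like cells held 1885 and 1806 CPM (ratio 0.958, 0.910 to 1.01). Over all blood EC-like cells these sums nearly cancelled, with a ratio of 0.952 (0.934 to 0.969), and in LEC-like cells the ratio was 1.06 (0.942 to 1.18).

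**Figure D5:**
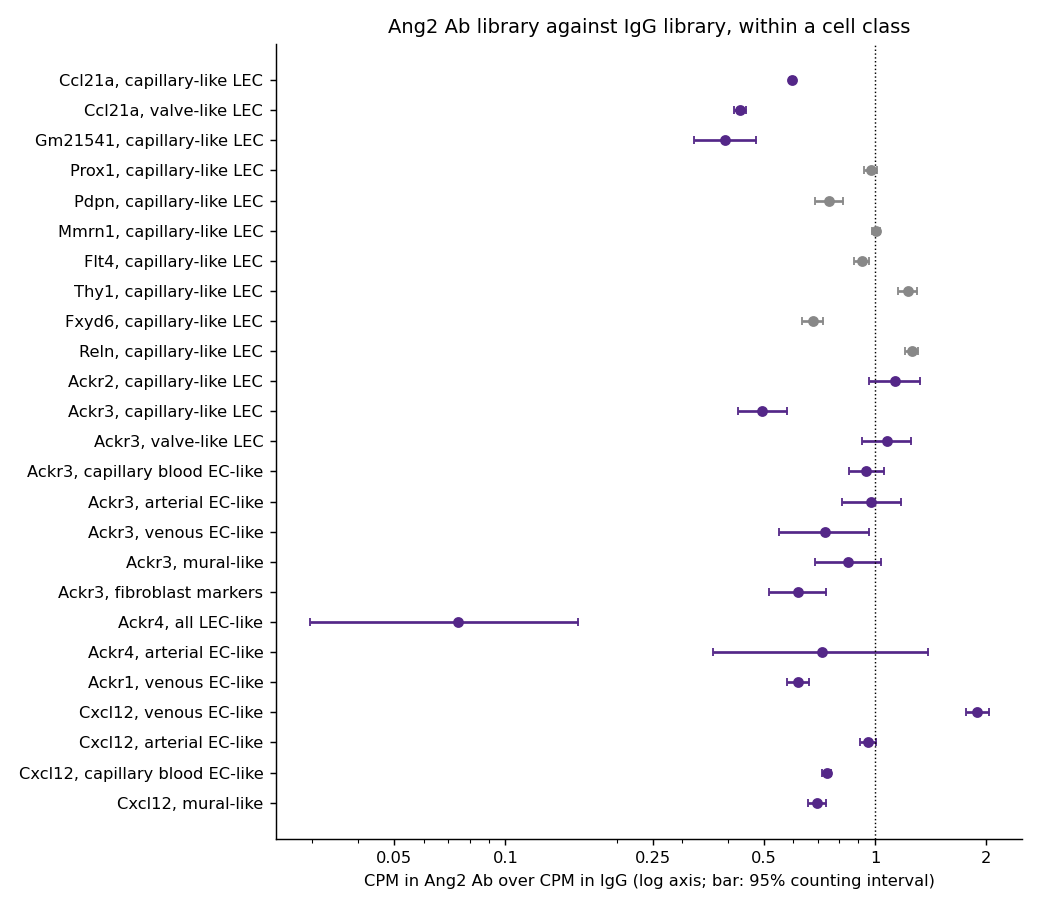
Ratio of CPM in the Ang2 Ab library to CPM in the IgG library within a cell class (log axis), with exact 95% intervals for counting error and a dotted line at 1. Ccl21a, Gm21541 and Ackr3 in capillary-like LECs lie at 0.394 to 0.597, with the 7 LEC markers (gray) at 0.678 to 1.26, and Cxcl12 in venous EC-like cells is at 1.89.

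Of the other genes of the pathway, 35 were taken in 4 lists by role, namely other homeostatic ligands, signaling receptors, other scavengers with their partners, and inflammatory ligands of Ackr1 or Ackr2. In the edgeR fits of the plates 0 genes of any list were called in any of the 4 contrasts, of 7, 7, 6 and 6 genes tested, beside the 1.2% of all genes called for the Tie1/-2 deletion. The median log2 fold changes for the Tie1/-2 deletion were -0.36, 0.10, 0.78 and 2.28, against a median of 0.0034 over all genes. The last of these medians is over 6 inflammatory ligands of few counts, from 65 for Ccl8 to 6891 for Ccl2 over all 8 plates. Their SEs ran from 1.14 (Ccl2) to 3.12 (Ccl5). At an unadjusted p under 0.05 there were 6 of the 26 genes tested for that contrast, beside 10.6% of all genes. Singled out for that p after the values were seen, the inflammatory ligands among them went in both directions, with a log2 fold change of 3.04 for Ccl2 (SE 1.14, edgeR adjusted p = 0.384), 3.20 for Ccl7 (SE 1.31, edgeR adjusted p = 0.434) and -5.28 for Ccl11 (SE 2.25, edgeR adjusted p = 0.456). The other genes were Ccl19 (-2.21, SE 0.95), Cxcr4 (6.87, SE 2.81) and Adm (0.71, SE 0.23). Cxcr4 lay near the floor, with at most 0.238 CPM on any plate. Ccl21b had no count on any plate, and Ccl21c had no row. The annotated Ccl21b transcript is the coding sequence of 402 bases, with the same substitutions as Gm21541, Gm10591 and Gm13304. Its reads could not be told from theirs by sequence, so the lack of counts does not show that Ccl21b was not expressed. CCR7, the receptor of CCL21, is a leukocyte gene, and Ccr7 gave 37 counts over all 8 plates. Cxcr4, the signaling receptor of CXCL12, gave 40 counts.

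In the droplets Ccr7 gave 1 UMI in the LEC-like cells of each library. Cxcr4 was an endothelial transcript of blood vessels, at 52.6 CPM in the blood EC-like cells of the IgG and 101 CPM in those of the Ang2 Ab library (ratio 1.93, 1.75 to 2.12), and at 27.9 CPM in the mural-like cells of both. LEC-like cells gave 42 and 44 Cxcr4 UMIs, or 2.32 CPM in the IgG and 4.42 CPM in the Ang2 Ab library (ratio 1.91, 1.22 to 2.99). Adm, which encodes adrenomedullin and was singled out after its values were seen, went from 215 to 428 CPM in LEC-like cells (ratio 1.99, 1.91 to 2.08). On the plates Adm was at 192 and 162 CPM on the Tie1 Tie2 fl/fl and at 236 and 339 CPM on the Tie1 Tie2 iΔLEC plates, a log2 fold change of 0.71 (SE 0.23, edgeR adjusted p = 0.314).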

How the data were processed

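Ear-skin LECs were profiled by Smart-seq on 8 plates and CD31-sorted ear-skin cells by 10x in 2 libraries. The authors deposited raw counts per gene and well or cell, with no normalization. Plate counts came from alignments with duplicate reads removed (TopHat2 2.1.1, SAMtools 0.1.18, Subread featureCounts, GRCm38), per the submitters' processing notes and the column names, and droplet UMI counts from Cell Ranger 6.0.2, per the file headers (the notes list 2.1.1). The symbol and Ensembl layouts of the plate tables were joined by gene name. The Ang2 Ab library is titled as an antibody control but its treatment label names the Ang2 antibody, which was followed.

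Wells with at least 1000 genes and cells with at least 500 genes and at most 10% mitochondrial UMIs were clustered (scanpy 1.11.5, Leiden resolution 1) without the members, their relatives, Lyve1 and Cldn11. Clusters were named from markers, except that capillary-like plate clusters were set apart by a rule made on the data (at least 3 markers raised 1.5-fold). The doublet caller marked 20 and 2 cells and so had not worked. Counts summed over LEC-like wells per plate were tested with edgeR 4.0.16 (quasi-likelihood, TMM, filterByExpr, Benjamini-Hochberg, 0.05) in 1 fit of 8 plates, with DESeq2 1.42.0 and limma 3.58.1 (log2 of CPM with a pseudocount of 1) as alternatives, and the fits were tested on simulated data. Droplet classes were compared by CPM and exact intervals. Named were the 6 members, Ccl21b, Ccl21c, Ccr7 and Cxcr4 of the related lists, and the 3 genes most correlated with each member. Other genes were chosen after their values were seen. The members and lists were chosen with earlier results of these data known.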

Additional observations from a re-analysis of the deposited data

Results flagged for a closer look

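Wells that were removed because their clusters carried markers of other cell types were used in no comparison, and 4 values in them lay above the range of the 4 control plates. Cxcl12 was at 121 CPM in 25 removed wells of Tie1 iΔLEC plate 2 and at 179 CPM in 24 removed wells of Tie1 Tie2 iΔLEC plate 2, against 2.19 to 76.0 CPM in the removed wells of the controls. On these plates 1 well held 38.4% and 46.0% of the Cxcl12 counts. In the removed wells of Tie1 iΔLEC plate 1 Cxcl12 was at 50.4 CPM, and those of Tie1 Tie2 iΔLEC plate 1 had 0 counts. Ackr1 was at 51.4 CPM in the removed wells of Tie1 iΔLEC plate 2, from 90 counts of which 89 lay in 1 well, against at most 0.924 CPM in the controls. Ackr3 was at 585 CPM in 6 removed wells of Tie1 Tie2 iΔLEC plate 1, where 1 well held 55.4% of the counts, against 201 to 407 CPM in the controls. The removed wells of the remaining deleted plates lay below all controls for Ackr3. They held 56.6 and 88.6 CPM on the Tie1 iΔLEC plates and 71.7 CPM on Tie1 Tie2 iΔLEC plate 2.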

How the results depend on the processing

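Of the alternatives to edgeR's fit, the number of members called rose from 0 to 1 with DESeq2 (Ackr4, Tie1/-2 deletion) and to 1 with no filter on low counts (Ackr3, for the Tie1/-2 deletion, the difference and the average), and the cause was not tested. The Tie1/-2 deletion gave 166 to 1199 called genes over the alternatives (239 as reported) and 90 to 222 with a plate left out. For Tie1 alone they numbered 0 to 271, for the difference 15 to 619 (27 as reported) and for the average 145 to 1076 (199 as reported). With the replicate block, 0 members and 198 genes were called for the Tie1/-2 deletion and 0, 17 and 145 genes in the other contrasts, where 27 and 199 had been called for the difference and the average. Samples of the same number correlated at 0.175 in the Tie1 strain and at 0.199 in the Tie1 Tie2 strain. With 2 plates per genotype, both pairs of a strain must give the same value, so each is a single value. The block did not follow the table layout over all 8 plates, since number 1 had the symbol layout in the Tie1 strain and the Ensembl layout in the Tie1 Tie2 strain. Plates of the same number within a strain shared the table layout and, in the Tie1 strain, the sex. The labels do not tie a number to a litter or day, so they were not taken as paired. Several values changed sign, with no member called. For Tie1 alone, leaving out a plate gave log2 fold changes of -0.28 to 0.23 for Ccl21a, -0.11 to 0.35 for Cxcl12, -0.48 to 0.96 for Ackr2, -1.04 to 0.59 for Ackr3 and -0.25 to 0.37 for Ackr4, and for the difference -1.42 to 0.0133 for Ackr2. Ackr4 was at -0.0102 with wells of at least 100000 counts, and Cxcl12 at -0.17 with the mean CPM per well in limma.

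In the droplets, with at least 1000 genes per cell, Cxcl12 in blood EC-like cells was at 2012 CPM, Ackr1 in venous EC-like cells at 931 CPM (ratio 0.674) and Ackr2 in capillary-like LECs at 88.7 CPM (ratio 0.995, which turned its direction). With at most 5% mitochondrial UMIs the levels were 9889 CPM for Ccl21a in LECs (ratio 0.601), 2173 CPM for Cxcl12, 907 CPM for Ackr1 (ratio 0.486), 216 CPM for Ackr3 in LECs (ratio 0.544) and 11.6 CPM for Ackr4 in LECs, and the Ackr3 ratio in valve-like LECs turned to 0.880. Without the top 5% of doublet scores Ccl21a was at 10020.5 CPM and Ackr1 at 929 CPM. As a mean over cells, Ccl21a was at 9901 CPM (ratio 0.538), Cxcl12 at 2121 CPM, Ackr1 at 809.9 CPM (ratio 0.670), Ackr3 at 179.6 CPM and Ackr4 at 7.36 CPM. The lower levels of Ccl21a and Ackr3 in LECs and of Ackr1 in venous cells of the Ang2 Ab library kept their direction under each of these alternatives. Few counts limit Ackr1 on the plates, whose log2 fold change for the Tie1/-2 deletion was 1.46 and became -6.66 without Tie1 Tie2 iΔLEC plate 2, and Ackr4, which rests on few wells and cells.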

Other observations

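In capillary-like LECs of the droplets, Cxcl12 was at 34.4 CPM in the IgG and 59.8 CPM in the Ang2 Ab library (ratio 1.74, 1.40 to 2.16), but the ratio was 0.978 with at most 5% mitochondrial UMIs and 0.929 with finer clusters. Adm, which encodes the adrenomedullin that ACKR3 takes up, was also higher in the blood EC-like cells of the Ang2 Ab library, at 60.8 CPM against 30.2 CPM in the IgG library.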
